A study of Mus musculus with 6 samples.

Results

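The 8 genes described here are the MHC class II genes H2-Aa, H2-Ab1, H2-Eb1, H2-DMa and H2-DMb1, the invariant chain gene Cd74, and the regulators Ciita and Rfx5, chosen by name among the 54532 genes of the count table. They were measured by RNA-seq in leukemia cells from C57BL/6 mice with leukemia driven by AML1-ETO9a (AE9a), a short splice form of the AML1-ETO fusion that was delivered by retrovirus into c-Kit+ marrow cells and carried on by serial transplantation. There were 3 libraries of central bone marrow (CBM) cells, flushed from the bones, and 3 of endosteal bone marrow (EBM) cells, released from the flushed bones by collagenase at 37 °C. The digestion was applied to EBM cells only, so region and digestion cannot be told apart, and all cells were kept in medium with serum around the sort. The labels do not say whether the libraries came from separate mice, so the p-values measure the spread between these libraries.

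MHC class II molecules are pairs of an alpha and a beta chain that display peptides from endosomes to CD4+ T cells, chiefly on dendritic cells, B cells and macrophages. The invariant chain CD74 fills their peptide groove until cathepsins degrade it, and the H2-DM heterodimer then exchanges the remaining fragment for a peptide. Their promoters share an X box, bound by the RFX complex of RFX5, RFXAP and RFXANK, and a Y box, bound by NF-Y, and become active when the class II transactivator CIITA, which interferon gamma induces through IRF1 outside the professional presenting cells, joins these factors. Immature myeloid blasts are known to carry variable amounts of class II. Mice of the b haplotype, such as C57BL/6, transcribe the E beta gene H2-Eb1 but have a defective E alpha gene and show no E molecule on the surface.

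Promoter sequences were found in RefSeq (GRCm38.p6) for 5 of the 8 genes, and not for H2-Ab1, Cd74 and Ciita. Stretches of 4 of them are printed to compare the letters of the X and Y boxes between the classical chain genes H2-Aa and H2-Eb1 and the genes H2-DMb1 and Rfx5. They run 5′ to 3′ on the strand of the gene, and capitals mark CCAAT (the Y box core), TGACG (the X2 box core) and GCAAC (the core of the X1 box), each searched on both strands. TGACG and its complement overlap in H2-Aa.
H2-Aa, chr17:34287859-34287953, minus strand: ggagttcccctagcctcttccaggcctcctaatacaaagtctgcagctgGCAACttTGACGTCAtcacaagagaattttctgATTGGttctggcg
H2-Eb1, chr17:34305737-34305831, plus strand: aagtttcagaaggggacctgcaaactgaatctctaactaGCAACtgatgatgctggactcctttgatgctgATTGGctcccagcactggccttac
H2-DMb1, chr17:34153105-34153134, plus strand: tgatgctaggctgattcactcagtgATTGG
Rfx5, chr3:94953978-94954072, plus strand: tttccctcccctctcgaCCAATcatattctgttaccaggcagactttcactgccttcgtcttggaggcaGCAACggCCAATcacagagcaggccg

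In H2-Aa the X1 core began at position -81 from the RefSeq start and ATTGG at position -48, and in H2-Eb1 they began at positions -91 and -59. GCAAC followed on the same strand by ATTGG after 25 to 40 bases was present in these 2 promoters and in 0.673% of the 32851 promoter windows of 250 bases in the table. H2-Eb1 held a further CCAAT at position -35, just past the end of its printed stretch. Singly the letters are common, since CCAAT was in 33.8%, TGACG in 17.8% and GCAAC in 29.9% of the windows on either strand. H2-DMb1 had ATTGG at position -61 and no GCAAC in its window, and its RefSeq start lies downstream of the start in the count table, so that the printed stretch falls in an annotated exon. The Rfx5 window held GCAAC at position -61 and CCAAT at positions -113 and -54, without the spaced pair. For H2-DMa the RefSeq starts lie well upstream of the start that the count table gives, and its windows held no spaced pair. These matches describe letters in the windows and were not tested as binding sites.

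**Figure D1:**
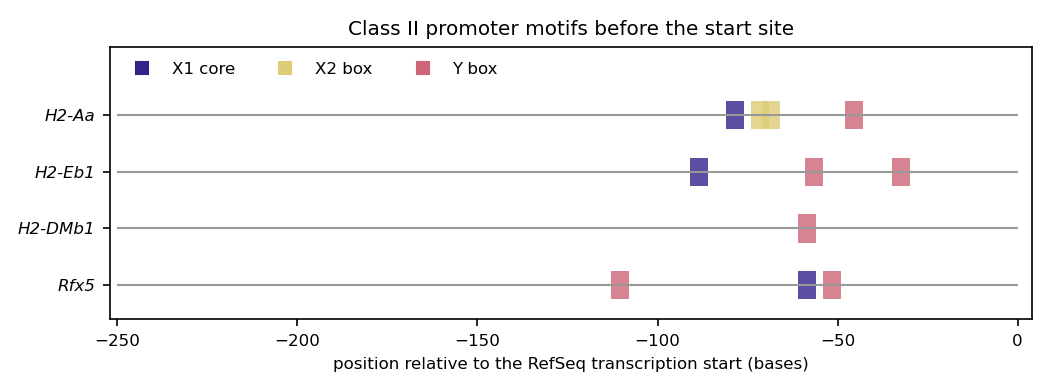
Positions of the X1, X2 and Y box cores in the 250 bases before the RefSeq start of H2-Aa, H2-Eb1, H2-DMb1 and Rfx5, in bases from the start on the x axis, with each coloured block covering a match on either strand. H2-Aa and H2-Eb1 have an X1 core followed by a Y box, at positions -81 and -48 and at positions -91 and -59.

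The libraries held 16436526 to 19462964 gene counts. Levels are given as CPM, the count scaled to library size with TMM factors, and 3 counts, taken as the detection floor for counting error only, equal 0.149 to 0.193 CPM. Values of single libraries are listed in order of replicate number. The labels name AE9a leukemia cells, and the paper describes the leukemia of this model as c-Kit-positive. Of the markers of these blasts, Kit was at 219 ± 8.18 CPM in CBM and 220 ± 22.1 in EBM (SD, n = 3 each). Other blast markers were less even between libraries. Cd34 was 15.3, 1.16 and 4.86 CPM in CBM and 16.4, 10.5 and 1.22 CPM in EBM. Runx1 was 721, 330 and 482 CPM in CBM and 615, 505 and 370 CPM in EBM. Mpo was 1.65, 14.9 and 3.12 CPM in CBM and 21.2, 35.7 and 5.52 CPM in EBM. Myb and Gata2 varied less than these. The first principal component of log2 CPM held 53.0% of the variance and separated CBM replicate 2 and EBM replicate 3 from CBM replicate 1, EBM replicate 1 and EBM replicate 2, with CBM replicate 3 between them, so it ran across the regions. The second component held 19.7% and separated the regions, with CBM at -22.8, -3.58 and -31.5 and EBM at 22.2, 20.9 and 14.8.

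The classical class II chains were near the floor in CBM and Cd74 was low but above it, and all had higher means in EBM, where EBM replicate 3 held the most. The difference was 4.17-fold for the mean CPM of Cd74 and larger, with a wider spread, for H2-Ab1, H2-Eb1 and H2-Aa. H2-DMa, H2-DMb1 and Rfx5, also part of the machinery, had mean CPM differences of 1.30-fold or less, although that of H2-DMb1 depended on single libraries. By the quasi-likelihood test of edgeR no member reached the adjusted threshold of 0.05, nor did any of the 13352 genes tested (0%). At an unadjusted p under 0.05 the numbers were 535 genes with higher and 521 with lower values in EBM, and DESeq2 put 173 genes, or 1.36% of 12760, past its adjusted threshold.

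Cd74 (ENSMUSG00000024610; chromosome 18, 60803848 to 60812646, plus strand, coordinates as in the table) had 38, 46 and 22 counts in CBM and 98, 141 and 162 in EBM. These are 2.16, 2.42 and 1.09 CPM in CBM and 5.40, 7.84 and 10.4 CPM in EBM. The lowest EBM library was above the highest CBM library (exact two-sided permutation over the 20 relabellings, p = 0.1, which 3 against 3 cannot go below). The fitted log2 fold change was 2.06 (standard error, SE, 0.38, edgeR unadjusted p = 0.00107, adjusted p = 0.189). Leaving out single libraries moved it between 1.78 and 2.28. DESeq2 put it at 2.07 and past the threshold (adjusted p = 6.70e-05). Over all alternatives the adjusted p ran from 6.70e-05 to 0.699.

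H2-Ab1 (ENSMUSG00000073421; chromosome 17, 34263209 to 34269418, plus strand), the beta chain of the A molecule, had 2, 13 and 7 counts in CBM and 19, 22 and 102 in EBM. The regions did not overlap, and EBM replicate 3 stood far above the rest of EBM. The CPM of H2-Ab1 was 0.381 ± 0.286 in CBM and 2.94 ± 3.13 in EBM (SD, n = 3 each), an SD as large as the EBM mean. The log2 fold change was 2.90 (SE 0.93, edgeR unadjusted p = 0.0171, adjusted p = 0.507), and 1.54 without EBM replicate 3 (edgeR adjusted p = 0.615). With DESeq2 H2-Ab1 passed narrowly (adjusted p = 0.0486).

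H2-Eb1 (ENSMUSG00000060586; chromosome 17, 34305877 to 34316199, plus strand), the beta chain of the E molecule, had 0, 11 and 4 counts in CBM and 13, 22 and 93 in EBM. The order of the libraries was that of H2-Ab1, with CBM replicate 2 the highest of CBM and EBM replicate 3 the highest of all. CPM was 0.259 ± 0.294 in CBM and 2.64 ± 2.90 in EBM (SD, n = 3 each), and the log2 fold change was 3.29 (SE 1.14, edgeR unadjusted p = 0.0243, adjusted p = 0.546). Without EBM replicate 3 it was 1.85 (edgeR adjusted p = 0.681), and without CBM replicate 2 it was 4.56 (edgeR adjusted p = 0.540). The EBM libraries alone were enough for H2-Ab1 and H2-Eb1 to pass the filter on low counts, so the filter itself favoured a difference. The E alpha gene, listed as H2-Ea-ps, had 0 counts in every library.

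H2-Aa (ENSMUSG00000036594; chromosome 17, 34282744 to 34287827, minus strand), the alpha chain of the A molecule, had 0, 5 and 0 counts in CBM and 3, 28 and 63 in EBM. EBM replicate 1 was below CBM replicate 2, so the regions overlapped (exact permutation test on log2 CPM, two-sided p = 0.2). The gene did not pass the filter on low counts and was not tested in the fit of filtered genes. Over the region totals, 94 counts in EBM and 5 in CBM, the CPM ratio was 20.7 with a 95% interval of 8.54 to 65.1 from counting error only, which leaves out the spread between libraries. With every gene of at least 1 count in the fit, its log2 fold change was 4.34 (edgeR adjusted p = 0.454).

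**Figure D2:**
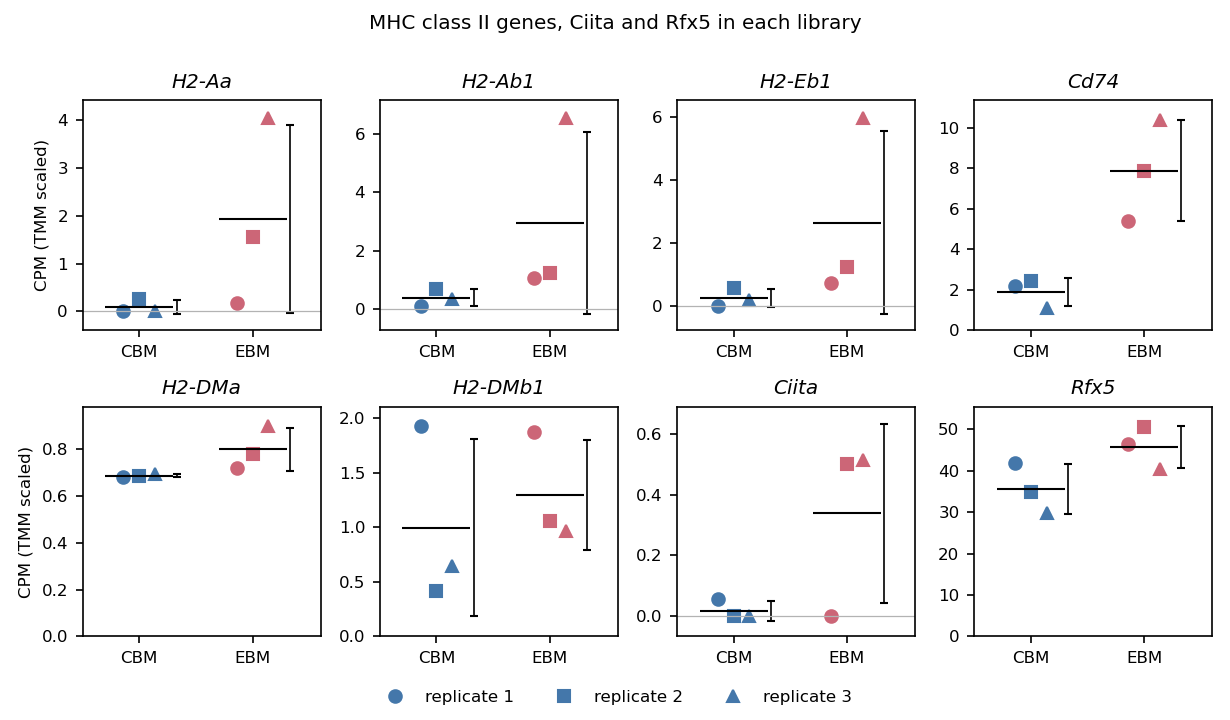
CPM of the 8 genes in each library, with CBM in blue and EBM in red, a symbol per replicate number, a line at the mean and a bar of 1 SD (n = 3). Cd74, H2-Ab1 and H2-Eb1 have every EBM library above every CBM library, and EBM replicate 3 is the highest for them and for H2-Aa, at 4.04 CPM for H2-Aa and 6.55 CPM for H2-Ab1.

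Summed over H2-Aa, H2-Ab1, H2-Eb1 and Cd74, the class II level was 2.27, 3.94 and 1.64 CPM in CBM and 7.33, 11.8 and 27.0 CPM in EBM. EBM libraries did not overlap CBM libraries (exact two-sided permutation, p = 0.1), and the mean difference was 2.44 on the log2 scale, or 5.43-fold. Without Cd74 the sum differed by 3.47 on the log2 scale. The makeup of the sum was not constant. Cd74 held 73.7% of the summed counts in EBM replicate 1 (95% Wilson interval 65.6% to 80.4%), 66.2% in EBM replicate 2 (59.6% to 72.2%) and 38.6% in EBM replicate 3 (34.0% to 43.3%). EBM replicate 3 therefore differed from the other EBM libraries more in the alpha and beta chains than in the invariant chain. In bulk RNA, a larger number of class II cells and more class II RNA per cell cannot be told apart.

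Ciita (ENSMUSG00000022504; chromosome 16, 10480059 to 10528418, plus strand), the transactivator on which class II transcription depends, had 1, 0 and 0 counts in CBM and 0, 9 and 8 in EBM. It was above the floor in EBM replicates 2 and 3 only, which are also the libraries with the most H2-Aa, and at 0 in EBM replicate 1, where the class II sum was nonetheless above that of each CBM library. The regions overlapped (exact permutation test on log2 CPM, two-sided p = 0.4), and Ciita did not pass the filter. The CPM ratio over the region totals of 17 and 1 counts was 18.7 with a 95% interval of 2.93 to 780.4 from counting error only. Ciita overlaps Dexi on the minus strand, which had between 130 and 202 counts per library and its lowest count in EBM replicate 3. The strand setting of the counting is not given, but Ciita had 0 counts in CBM replicates 2 and 3 and EBM replicate 1, where Dexi had 183, 202 and 146, so only reads in the stretch they share could be ambiguous.

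Rfx5 (ENSMUSG00000005774; chromosome 3, 94954075 to 94961561, plus strand), the DNA-binding subunit of the RFX complex, was the one well counted member, with 738, 665 and 603 counts in CBM and 842, 909 and 630 in EBM. Its CPM was 35.6 ± 6.05 in CBM and 45.8 ± 5.07 in EBM (SD, n = 3 each), and EBM replicate 3 lay below CBM replicate 1 at 40.4 against 41.9 CPM. The log2 fold change was 0.36 (SE 0.16, edgeR unadjusted p = 0.0537, adjusted p = 0.639). Rfx5 was thus lowest of EBM in the library in which the class II chains were highest.

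H2-DMa (ENSMUSG00000037649; chromosome 17, 34135182 to 34139101, plus strand), the alpha chain of the peptide exchanger, had 12, 13 and 14 counts in CBM and 13, 14 and 14 in EBM. The log2 fold change was 0.21 (SE 0.30, edgeR adjusted p = 0.954), and although the CPM of the regions did not overlap, the counts differed by no more than 2. H2-DMb1 (ENSMUSG00000079547; chromosome 17, 34153072 to 34160230, plus strand), its beta chain, had 34, 8 and 13 counts in CBM and 34, 19 and 15 in EBM. It was highest in CBM replicate 1 and EBM replicate 1 alike, and differed by 0.39 log2 units (SE 0.61, edgeR adjusted p = 0.960). This value was 1.28 without CBM replicate 1, 0.03 without CBM replicate 2, 0.15 without CBM replicate 3 and 0.02 without EBM replicate 1, none past the adjusted threshold. H2-DMb1 shares 22.7% of its transcript stretches of 50 bases with H2-DMb2, so reads between these genes are uncertain, and H2-DMb2 itself had at most 3 counts in a library. Neither H2-DM gene showed the excess in EBM replicate 3 that H2-Aa, H2-Ab1 and H2-Eb1 showed.

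Of the 8 members, 6 passed the filter. Among these, H2-Ab1, H2-Eb1 and Cd74 had an unadjusted edgeR p under 0.05 with higher values in EBM, beside 4.01% of all genes tested (3.9% lower), and these 3 and H2-DMa had all EBM libraries above all CBM libraries, beside 7.48% of all genes tested (7.63% with all EBM below). The filter kept H2-Ab1 and H2-Eb1 because of their EBM counts, so these numbers were not read as support.

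**Figure D3:**
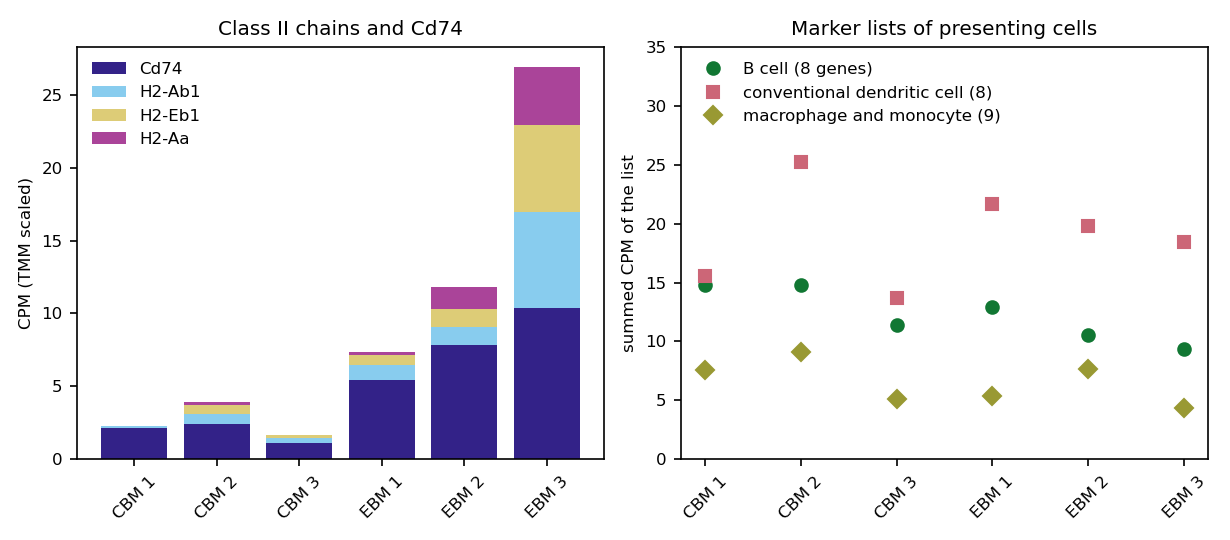
Left, CPM of Cd74, H2-Ab1, H2-Eb1 and H2-Aa stacked for each library, and right, the summed CPM of B cell, conventional dendritic cell and macrophage marker lists in the same libraries. The class II sum is at most 3.94 CPM in CBM and reaches 27.0 CPM in EBM replicate 3, where the marker lists are not at their highest.

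Levels per gene length, in CPM per kilobase, put Rfx5 first in both regions, at 6.48 ± 1.10 in CBM and 8.33 ± 0.923 in EBM (SD, n = 3 each), and Cd74 second, at 1.34 ± 0.499 and 5.59 ± 1.77. In CBM the ranges of Rfx5 and Cd74 did not overlap, and in EBM they met, since Cd74 reached 7.38 and Rfx5 went down to 7.36, both in EBM replicate 3. In CBM the H2-DM chains came next, H2-DMb1 at 0.673 and H2-DMa at 0.418, above H2-Ab1 at 0.233, H2-Eb1 at 0.219 and H2-Aa at 0.0467 CPM per kilobase. In EBM the order turned, with H2-Eb1 at 2.23, H2-Ab1 at 1.80 and H2-Aa at 1.03 above H2-DMb1 at 0.874 and H2-DMa at 0.486 CPM per kilobase. For H2-DMb1 this turn rested on EBM replicate 3. Without it, a setting chosen after seeing the data, the EBM means were 0.987 for H2-DMb1, above 0.819 for H2-Eb1, 0.693 for H2-Ab1 and 0.459 for H2-Aa. H2-DMa at 0.456 then stayed below H2-Eb1 and H2-Ab1 and was level with H2-Aa. That H2-Aa mean came mostly from EBM replicate 2, at 0.831 CPM per kilobase against 0.0883 in EBM replicate 1. Ciita was last in both regions. From Cd74 down, neighbours in the CBM order overlapped in range, and in EBM only H2-DMb1 against H2-DMa and H2-DMa against Ciita did not.

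**Figure D4:**
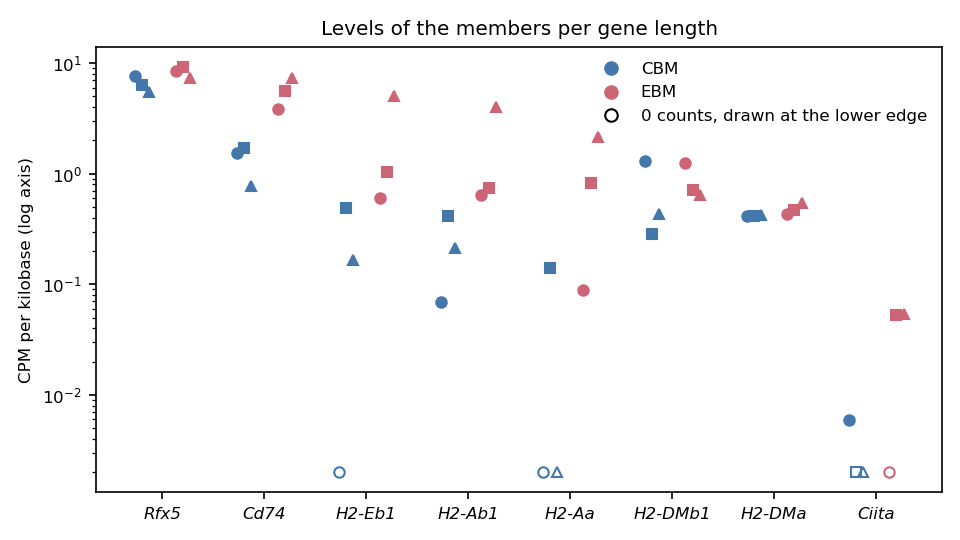
CPM per kilobase of gene length on a log axis for each member and library, in the order of the EBM means, with CBM in blue, EBM in red, a circle, square and triangle for replicates 1 to 3 and open symbols for 0 counts. Rfx5 is the most abundant member in both regions, and the chains H2-Eb1, H2-Ab1 and H2-Aa span the widest range.

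The summed markers of the cells that normally carry class II overlapped between the regions. Of 8 B cell markers, Ms4a1, Pax5 and Ebf1 had at most 3 counts in any library and Ms4a1 had 0, and the summed list was between 11.4 and 14.8 CPM in CBM and between 9.37 and 13.0 CPM in EBM. Its most abundant genes per length were Cd79b, Ighm and Cd79a, and Cd79b had 131 to 242 counts in CBM and 98 to 205 in EBM. Of 8 conventional dendritic cell markers, Xcr1, Clec9a, Batf3 and Cd209a had at most 3 counts in any library and Cd209a had 0, while Zbtb46, Clec10a and Ccr7 led the list, which summed to between 13.7 and 25.2 CPM in CBM and between 18.5 and 21.7 CPM in EBM. The 9 macrophage and monocyte markers, led by Cd68, C1qb and C1qa, summed to between 5.10 and 9.09 CPM in CBM and between 4.37 and 7.67 CPM in EBM. EBM replicate 3, with the most class II, had the lowest sums of the B cell and macrophage lists and 0 counts of the macrophage genes Csf1r and Adgre1. These sums rested mostly on single genes. In EBM replicate 3, Cd79b held 98 of the 146 B cell list counts, and Cd68 held 54 of the 68 macrophage list counts. Single markers differed from these sums. Ighm, the immunoglobulin mu heavy chain gene, had 3, 130 and 3 counts in CBM and 12, 21 and 40 in EBM, so within each region it was highest in the library with the highest class II sum. Of the dendritic cell markers at the floor, Clec9a had its 2 counts in EBM replicate 3, and Xcr1 had 3 of its 5 counts there. Other genes of that list went the other way within EBM. Clec10a had 137, 94 and 8 counts, Itgax 2, 8 and 1, and Ccr7 5, 9 and 2. Zbtb46 was highest in EBM replicate 3, with 247, 246 and 271 counts. The dendritic cell sum was lowest of EBM in EBM replicate 3, at 18.5 CPM.

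The 6 plasmacytoid dendritic cell markers, led by Bst2, Runx2 and Ccr9, summed to between 77.5 and 85.4 CPM in CBM and between 76.7 and 106.2 CPM in EBM, with the highest sum in EBM replicate 3. That sum was nearly all Bst2, an interferon-responsive gene that other cells also carry, and the defining Siglech had at most 2 counts. T and NK cell markers, led by Nkg7, Cd8a and Cd3g, summed to at most 46 counts and stromal and vessel markers, led by Bglap, Pecam1 and Cxcl12, to at most 36 counts in any library. Neutrophil markers, led by S100a9, S100a8 and Camp, ranged from 2.33 to 175.9 CPM in CBM and from 26.9 to 117.6 CPM in EBM, with the highest sums in CBM replicate 2 and EBM replicate 2. Erythroid markers, led by Car1, Hba-a1 and Hbb-bs, were high throughout, between 4608 and 7469 CPM in CBM and between 5366 and 6259 CPM in EBM. The list for the leukemia blasts, led by Gata2, Runx1 and Myb, was between 1576 and 2246 CPM in CBM and between 2030 and 2097 CPM in EBM. The part of other cells in the class II difference was not tested.

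Around the members, 40 further genes of the class II pathway were examined, of which 29 were tested, 18 were higher and 11 lower in EBM, and the median log2 fold change was 0.06, beside 0.00 over all genes tested. None passed an adjusted p of 0.05, and Irf1 and Nfya had an unadjusted p under 0.05, both higher in EBM. These 2 genes compare with 4.01% of all genes tested that were higher at that p, so the count by itself is no result about the pathway. Irf1, the interferon regulatory factor that acts on the inducible Ciita promoter, was 16.6, 9.15 and 7.68 CPM in CBM and 31.4, 26.7 and 27.6 CPM in EBM. The regions did not overlap, and Irf1 differed by 1.36 log2 units (SE 0.29, edgeR unadjusted p = 0.00245, adjusted p = 0.275). It passed the threshold with DESeq2 (adjusted p = 0.00111). The other 9 genes of the interferon gamma list all had an unadjusted p above 0.05, and its median log2 fold change was -0.01. Ifngr1 and Jak1 also had all EBM libraries above all CBM libraries, beside 7.48% of all genes tested. They differed by 0.61 and 0.16 log2 units (edgeR unadjusted p = 0.0603 and 0.0915). The remaining 7 genes overlapped between the regions. Among them the interferon target Gbp2 was 14.6 ± 8.58 CPM in CBM and 16.3 ± 8.30 in EBM (SD, n = 3 each). Within EBM, Gbp2 was lowest in replicate 3, at 24.1, 17.2 and 7.57 CPM. Socs1 was likewise lowest there, at 5.18, 3.45 and 1.48 CPM. The targets Igtp and Irgm1 were instead highest in EBM replicate 3. Igtp was 13.9, 25.7 and 18.7 CPM in CBM and 12.3, 12.5 and 33.6 CPM in EBM. Irgm1 was 42.7, 97.2 and 65.3 CPM in CBM and 31.5, 51.4 and 119.4 CPM in EBM.

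Among the promoter factors, Nfya, the DNA-binding subunit of NF-Y with NFYB and NFYC, was 175 ± 3.19 CPM in CBM and 226 ± 16.5 in EBM (SD, n = 3 each), with no overlap and a difference of 0.37 log2 units (edgeR unadjusted p = 0.00478, adjusted p = 0.334, DESeq2 adjusted p = 0.0930). Rfxap and Rfxank, the partners of RFX5, had log2 fold changes of 0.06 and -0.23 (edgeR adjusted p = 0.982 and 0.896). The partners of RFX5 and the NF-Y genes had at least 245 counts in each CBM library, where Ciita had 1 count in all.

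Of the other class II chains, the H2-O genes, whose product restrains H2-DM in B cells, overlapped between the regions. H2-Ob had 148, 13 and 56 counts in CBM and 142, 133 and 16 in EBM, low in CBM replicate 2 and EBM replicate 3, the libraries at one end of the first principal component. H2-Oa, with the smallest p of that list, was 10.9 ± 5.18 CPM in CBM and 12.6 ± 3.65 in EBM (SD, n = 3 each; edgeR adjusted p = 0.972). EBM replicate 3 thus held the most H2-Ab1 and H2-Eb1 and little H2-Ob.

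In the processing list, Ctss, the cathepsin that cuts the invariant chain in presenting cells, had 3, 18 and 8 counts in CBM and 12, 34 and 9 in EBM, a difference of 1.04 log2 units (SE 0.71, edgeR adjusted p = 0.801). In the surface list, March8, a ligase of the family that removes class II from the membrane, had the smallest p (log2 fold change -0.17, edgeR adjusted p = 0.973). The costimulatory Cd86 had 0, 1 and 0 counts in CBM and 1, 4 and 3 in EBM. Cd40 had 0 counts in each CBM library and 3, 2 and 2 in EBM. Icosl had 0, 2 and 1 counts in CBM and 1, 8 and 6 in EBM. These low genes did not pass the filter and were not tested in that fit. Cd80 overlapped, with 16, 14 and 19 counts in CBM and 13, 29 and 7 in EBM. Of the regulators of Ciita, Irf8, a myeloid and dendritic cell factor, had 2, 19 and 3 counts in CBM and 6, 27 and 29 in EBM (log2 fold change 1.52, SE 0.92, edgeR adjusted p = 0.752). Spi1, which encodes PU.1, was 84.6 ± 14.7 CPM in CBM and 96.8 ± 8.76 in EBM (SD, n = 3 each).

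**Figure D5:**
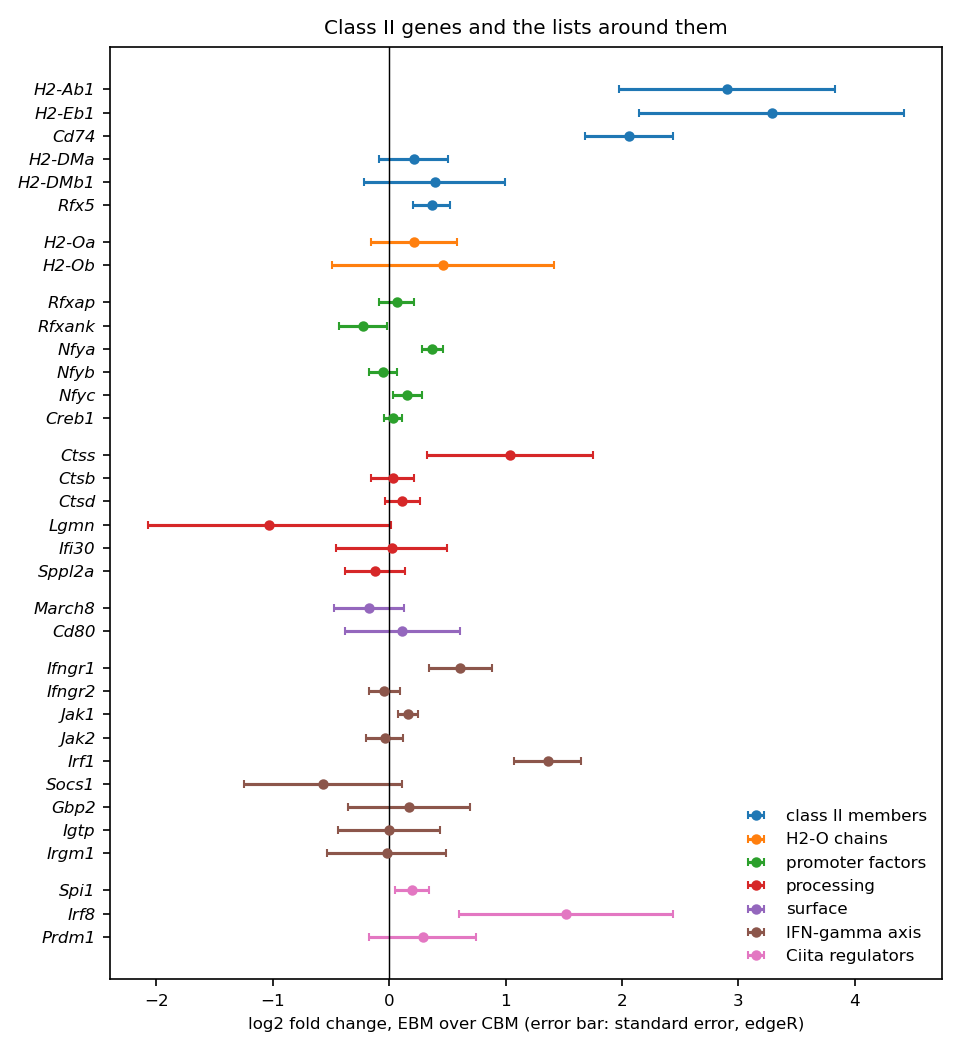
Log2 fold change of EBM over CBM on the x axis for the 6 tested members and tested genes of the surrounding lists, with bars of 1 standard error from edgeR. H2-Ab1, H2-Eb1 and Cd74 lie at 2.90, 3.29 and 2.06, Irf1 at 1.36, Nfya at 0.37, Rfxap at 0.06 and Rfxank at -0.23.

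Across the 6 libraries the genes with the closest pattern to the class II sum were Bud31, Pdhb, Gabarapl1, Gm4294 and Zdhhc24, with Pearson r between 0.990 and 0.993 on log2 CPM. Their differences were small, with a log2 fold change of 0.44 for Bud31 and 0.20 for Pdhb. The genes most like Rfx5 were Dnal4, Mid1-ps1 and Mtmr12, with r between 0.981 and 0.993. With 6 libraries that differ in region, digestion and the axis of the first principal component, such values describe these libraries only.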

How the data were processed

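Libraries were made by the authors from rRNA-depleted RNA with a directional kit and sequenced as paired-end reads. The labels give the library type as mRNA. HISAT2 2.0.5 and mm10 are named in the submitters' processing notes, and the counting tool, the annotation release and the strand setting are not given in the sources used here. The authors deposited raw counts per gene and a gene length, without normalization. The coordinates of 3 of the 8 members were the same in GENCODE M21. Spreadsheet-altered symbols were restored for 27 genes through their Ensembl identifiers.

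Genes were filtered with filterByExpr, normalized by TMM (factors 0.948 to 1.04) and tested with the quasi-likelihood test of edgeR 4.0.16 with Benjamini-Hochberg adjustment at 0.05, without a block. The standard error is the absolute log2 fold change divided by the square root of F. Single values were tested by exact two-sided permutation on log2 CPM (prior count 2). DESeq2 1.42.0, limma 3.58.1 (voom), other size factors and filters, the replicate block and each library left out were alternatives. The methods were tested on simulated data.

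The members and gene lists were chosen with earlier results of these data known. The genes named are the members, the list genes with an unadjusted p under 0.05 or else the smallest p, the 3 most abundant markers per list and those at 0, and the genes most correlated with the summed class II level and Rfx5. Other list genes were named after their values were seen. Values of some list genes are not reported here.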

Additional observations from a re-analysis of the deposited data

How the results depend on the processing

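The direction of every member was the same under all alternatives in which it could be fitted. Of the counts, the 0 genes past the threshold became 173 with DESeq2 and 40 with every gene of at least 1 count, and the 0 members past it became 2 with DESeq2 (Cd74 and H2-Ab1). The 2 pathway genes with an unadjusted p under 0.05 became 4 with the replicate block, a setting chosen for this list after seeing the data. Deviations of libraries with the same number correlated with r of 0.68, -0.20 and 0.20, and those of CBM replicate 2 and EBM replicate 3 with r of 0.51. Such values cannot decide whether libraries of the same number came from the same mouse, and the labels do not say. With the replicate block no member passed (Cd74: log2 fold change 2.05, edgeR adjusted p = 0.442). The class II sum then differed by 2.44 on the log2 scale (exact sign-flip p = 0.25, the smallest possible), and over its 11 alternatives it ran from 1.93 without EBM replicate 3 to 3.47 without Cd74. For the members under the filter, the difference of mean log2 CPM was 2.90 for H2-Aa and 1.45 for Ciita. Fitted, H2-Aa was 8.10 without CBM replicate 2, where both remaining CBM libraries had 0 counts, and Ciita was 3.79 with every gene of at least 1 count and 4.16 with DESeq2. Such values depend on the prior count and are no bounds, and the 1 Ciita count in CBM limits their precision.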
